A study of Mus musculus with 12 samples.

Results

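The p53 family and DNA damage checkpoint genes described here are 10 genes, namely Trp53, Trp63, Mdm2, Mdm4, Cdkn1a, Aen, Chek1, Chek2, Atm and Atr. They were chosen by gene symbol, with earlier results of these data known, and all 10 were found among the 25162 genes read. Polyadenylated RNA was measured in mouse oocytes in which the nuclease gene Rnaseh1 was deleted (KO in the labels, headed oo-/- in the table) or floxed (the control, WT in the labels and headed fl/fl), at 3 stages that the labels abbreviate NGO, GO and FGO. Such abbreviations usually mean oocytes before growth (non-growing), in growth and after it (fully grown). The labels list 12 samples, 2 for each genotype and stage, each a pool of 10 oocytes lysed with 100 pg of spike-in RNA (ERCC). The sources used here name neither the promoter that drives the deletion nor the strain and age of the animals.

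The values came in 6 columns, 1 for each genotype and stage, as FPKM, fragments scaled to transcript length and to the fragments of the library, which were adjusted by the authors to the spike-in. It is not stated whether a column is a mean, a pool or a single sample. Replicates could thus not be compared, so that SDs and p-values are absent. The number of reads behind a column is unknown. Because oocytes were pooled, a level shared by all oocytes and one carried by a few of them cannot be told apart. Differences are KO minus WT on log2(FPKM + 1), and a gene is called when the difference is at least 1, which is 2-fold. Compared were the 10110 genes whose 6 values averaged 1 FPKM or more. Of the 10 genes 8 passed this minimum, and Cdkn1a and Atm, which reached 1 FPKM in 0 columns, did not. Values "after rescaling" were first divided by 1 factor per column, the median over genes of its ratio to their geometric mean. The factors lay between 0.453 and 2.26.

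The labels were checked against Rnaseh1 and against marker genes. Rnaseh1 in KO was at 10.8% of WT at NGO, 11.2% at GO and 27.6% at FGO. Of 16 oocyte markers, 16 were at 1 FPKM or more in each column other than WT FGO, where 15 were and Sohlh1 was listed at 0. Of 14 granulosa cell markers, 1, 1 and 8 reached 1 FPKM in KO at NGO, GO and FGO, against 0, 2 and 5 in WT. Their summed level was 4.50, 5.33 and 43.6 FPKM in KO and 2.29, 9.74 and 15.7 FPKM in WT. Foxl2, a defining granulosa gene, was listed at 0 in KO FGO and at 0.0130 FPKM in WT FGO, and Amh was at 0.282 and 0.0206 FPKM. Others of these markers were higher in KO FGO, with Inha at 9.32 FPKM against 1.17 in WT FGO and Gja1, a gap junction gene, at 6.96 against 0.965. Summed levels of 9 theca and stroma markers stayed between 0.456 and 4.51 FPKM, and those of 9 immune, endothelial and blood markers between 0.683 and 17.1 FPKM.

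Cells with broken or unreplicated DNA activate the kinases ATM and ATR, which switch on the effector kinases CHK2 and CHK1. These restrain the cell cycle and stabilise p53, a transcription factor held low by MDM2 and MDM4 and itself an activator of Mdm2, so that the pathway limits its own activity. In oocytes the p53 relative p63 has the central role: it is made in a resting form in arrested oocytes, and after DNA damage CHK2 helps to convert it to an active form that kills the cell. RNA levels say nothing of these activation steps, which act on the proteins. Rnaseh1 encodes RNase H1, which removes the RNA strand of RNA-DNA hybrids, and unresolved hybrids are a known source of DNA damage.

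Mdm2, Cdkn1a and Aen are targets that p53 itself switches on in many cells. RefSeq promoter windows on GRCm38.p6, 250 bases before to 50 bases after the annotated start, were at hand for 9 of the 10 genes, 12 windows in all. They were searched for the p53 recognition decamer, a 10-base consensus with degenerate letters that equals its own reverse complement and so covers both strands. It was found in 5 of these 12 windows, belonging to 4 genes (Trp53, Mdm2, Cdkn1a and Aen). Both Aen windows hold the same match and each is counted. Over all 32851 windows the share with a match was 8.36%. As Mdm2, Cdkn1a and Aen are known targets, this share is given for reference and the count was not tested against it. The windows below are shown because they hold the matches of the targets, printed in capitals, 5′ to 3′ on the strand of the gene.
Mdm2, chr10:117710709-117711008, minus strand: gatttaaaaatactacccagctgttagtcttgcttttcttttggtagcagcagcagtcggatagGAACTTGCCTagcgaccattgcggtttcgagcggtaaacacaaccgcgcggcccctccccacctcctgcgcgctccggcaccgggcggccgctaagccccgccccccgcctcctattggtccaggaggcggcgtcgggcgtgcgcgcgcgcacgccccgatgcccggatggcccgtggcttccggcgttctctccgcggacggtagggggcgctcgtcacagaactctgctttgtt
Cdkn1a, chr17:29090729-29091028, plus strand: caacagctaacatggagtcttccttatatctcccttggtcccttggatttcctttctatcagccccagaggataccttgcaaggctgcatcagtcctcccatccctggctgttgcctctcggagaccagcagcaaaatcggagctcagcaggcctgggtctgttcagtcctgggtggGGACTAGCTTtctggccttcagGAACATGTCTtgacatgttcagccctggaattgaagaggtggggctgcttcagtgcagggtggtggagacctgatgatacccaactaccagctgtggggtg
Aen, chr7:78895808-78896107, plus strand: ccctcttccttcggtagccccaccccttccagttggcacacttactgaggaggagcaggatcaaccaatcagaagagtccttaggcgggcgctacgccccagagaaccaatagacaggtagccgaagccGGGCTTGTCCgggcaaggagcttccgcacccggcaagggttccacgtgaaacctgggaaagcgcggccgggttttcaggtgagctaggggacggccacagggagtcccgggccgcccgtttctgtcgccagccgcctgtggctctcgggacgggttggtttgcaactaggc

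In Mdm2 the match GAACTTGCCT began 186 bases before the start. In the upstream start of Cdkn1a a pair of matches, GGACTAGCTT and GAACATGTCT, began 73 and 51 bases before the start with 12 bases between them. Such a pair within 13 bases was found in 24 of the 32851 windows, or 0.0731%. Only exact matches were searched for. The stretch tgacatgttc that directly follows GAACATGTCT differs from the consensus in its first letter and was therefore not counted. The window at the other annotated start of Cdkn1a held 0 matches. In Aen the match GGGCTTGTCC began 121 bases before the annotated start used for the window shown and lies in both of its windows. A match is a run of letters and no measure of binding, and the internal Mdm2 promoter known to respond to p53 lies outside this window and was not examined.

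**Figure D1:**
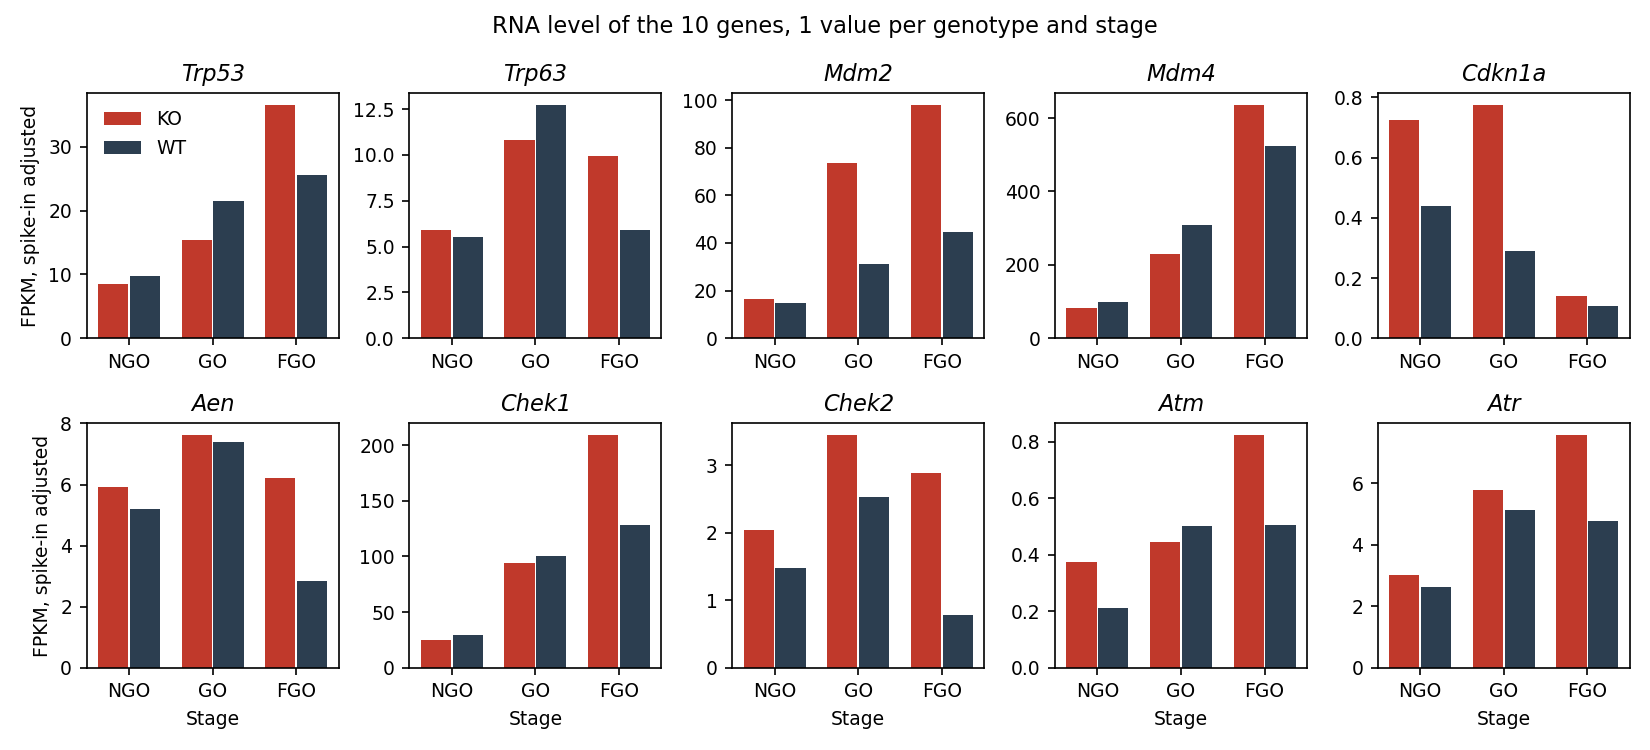
FPKM as adjusted by the authors (y axes, from 0, a separate scale for each gene) at NGO, GO and FGO, with KO bars left of WT bars. Each bar is 1 value, so there are no error bars. Mdm2 stood at 73.7 FPKM in KO GO against 31.3 in WT GO, while Cdkn1a and Atm stayed below 1 FPKM throughout.

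Trp53, which encodes p53 (chromosome 11, 69580348 to 69591873 on mm10, gene ID 22059), was at 8.54, 15.4 and 36.5 FPKM in KO at NGO, GO and FGO, and at 9.81, 21.5 and 25.5 FPKM in WT. KO was thus below WT at NGO and GO and above it at FGO. The log2 differences were -0.18, -0.45 and 0.50 as deposited and -0.02, -0.37 and -0.26 after rescaling. Trp63, which encodes p63 (chromosome 16, 25683763 to 25892088, gene ID 22061), was at 5.92, 10.8 and 9.92 FPKM in KO and at 5.52, 12.7 and 5.93 FPKM in WT. Differences were 0.08, -0.21 and 0.66 as deposited and 0.26, -0.14 and -0.04 after rescaling. One value per gene cannot separate the long p63 forms, which carry the activation domain and are the forms known from oocytes, from the short ones.

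Neither factor was called at any stage. At FGO the median gene differed by 0.72 as deposited, so Trp53 and Trp63 lay below the median gene there although both were listed higher in KO. Trp63 was below Trp53 in every column. The ratio of Trp63 to Trp53, which no column factor can alter, was 0.693, 0.702 and 0.272 in KO and 0.563, 0.593 and 0.233 in WT. The fall of this ratio at FGO was thus seen in both genotypes. Trp73, which encodes the remaining relative p73 and is not among the 10 genes, was at 0.345, 1.56 and 1.90 FPKM in KO and 0.601, 1.24 and 1.27 FPKM in WT.

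The inhibitors differed from each other. Mdm2 encodes the ubiquitin ligase that marks p53 for destruction (chromosome 10, 117688875 to 117710758, gene ID 17246). It was at 16.6, 73.7 and 97.9 FPKM in KO at NGO, GO and FGO, and at 14.9, 31.3 and 44.8 FPKM in WT. The KO value was higher at every stage, by little at NGO and by more than 2-fold at GO and FGO. The KO to WT ratio was 1.12, 2.36 and 2.19 as deposited and 1.27, 2.48 and 1.26 after rescaling. The GO difference was therefore nearly the same on both scales, and the FGO difference shrank to the size seen at NGO.

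On the log2 scale Mdm2 differed by 0.15, 1.21 and 1.11 as deposited and by 0.33, 1.28 and 0.33 after rescaling. At GO only 32 of the 10110 genes compared had a larger difference as deposited, and 26 after rescaling. At FGO 1878 genes had a larger one. From NGO to GO the difference of Mdm2 grew by 1.06, more than for all but 70 genes, against a median of 0.05 over all genes. From GO to FGO it changed by -0.10 as deposited, where the median gene gained 0.80, and by -0.95 after rescaling. These shifts were not tested.

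Granulosa and length values were set beside the GO difference of Mdm2, and their part in it was not tested. Granulosa markers summed to 5.33 FPKM in KO GO and 9.74 FPKM in WT GO, so their sum was lower in KO. The highest single marker was at 2.33 FPKM in KO GO and 4.35 FPKM in WT GO. The longest Mdm2 transcript of GENCODE M21 has 3145 bases, and the 2486 genes with transcripts of like length, 2074 to 3233 bases, had a median difference of 0.02 at GO as deposited and 0.08 after rescaling. At FGO the granulosa sums were 43.6 FPKM in KO and 15.7 FPKM in WT, and their part in the FGO values of Mdm2 was not tested.

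Mdm4 encodes the sister protein of MDM2 that mainly blocks the activation domain of p53 (chromosome 1, 132986105 to 133030587, gene ID 17248). It was the most abundant of the 10 genes in every column, at 82.8, 229.6 and 635 FPKM in KO and 98.1, 309.7 and 523 FPKM in WT. These levels exceeded those of 98.0%, 98.0% and 98.5% of the genes compared in KO and of 97.8%, 98.4% and 98.8% in WT. KO was below WT at NGO and GO and above it at FGO. Differences were -0.24, -0.43 and 0.28 as deposited and -0.06, -0.35 and -0.51 after rescaling, so that Mdm4 at FGO was below the median gene on both scales.

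Ratios within a column make the contrast between the inhibitors plain. The Mdm2 to Mdm4 ratio was 0.200, 0.321 and 0.154 in KO and 0.151, 0.101 and 0.0855 in WT. It was 3.18 times as high in KO as in WT at GO, 1.32 times at NGO and 1.80 times at FGO. The Mdm2 to Trp53 ratio was 1.94, 4.78 and 2.68 in KO and 1.51, 1.46 and 1.76 in WT. In WT this ratio stayed between 1.46 and 1.76 over the stages, while in KO it stood out at GO.

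**Figure D2:**
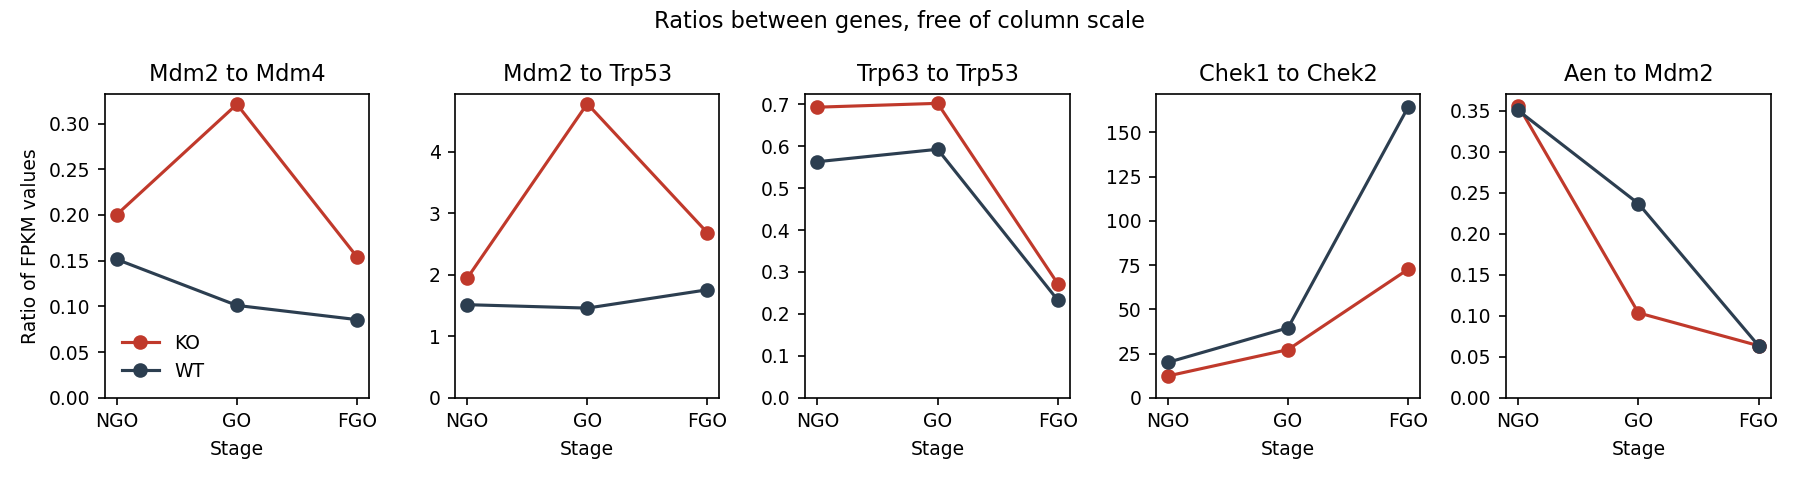
Ratios of the FPKM of named gene pairs (y axes, from 0) at NGO, GO and FGO, with KO in red and WT in dark blue, 1 value per genotype and stage. A factor on a whole column cancels out of these ratios; Mdm2 to Mdm4 peaked at 0.321 in KO GO against 0.101 in WT GO, and Chek1 to Chek2 was lower in KO at each stage.

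Of the other p53 targets among the 10 genes, Cdkn1a was too low to be compared and Aen was not called at GO. Cdkn1a, which encodes the inhibitor p21 of cyclin-dependent kinases (chromosome 17, 29090979 to 29100722, gene ID 12575), was at 0.725, 0.774 and 0.141 FPKM in KO and at 0.438, 0.290 and 0.106 FPKM in WT. Its KO value was the higher at each stage as deposited, but all 6 values were below 1 FPKM. The KO to WT ratio was 1.66, 2.67 and 1.33 as deposited and 1.88, 2.82 and 0.768 after rescaling. At GO this ratio was above that of Mdm2 on both scales, and at FGO its direction changed with the scale. At such levels the log2(FPKM + 1) differences, 0.26, 0.46 and 0.04, understate a change, and the number of reads behind them is unknown. Cdkn1a was therefore not compared. Aen, which encodes an exonuclease that takes part in p53-driven cell death (chromosome 7, 78895927 to 78911209, gene ID 68048), was at 5.91, 7.63 and 6.22 FPKM in KO and at 5.20, 7.41 and 2.84 FPKM in WT. At GO it differed by 0.04, and at FGO by 0.91 as deposited and 0.24 after rescaling. The Aen to Mdm2 ratio was 0.356, 0.103 and 0.0635 in KO against 0.350, 0.237 and 0.0634 in WT, so the genotypes stood apart at GO and hardly at NGO and FGO.

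Among the effector kinases, Chek1 encodes CHK1, which answers to ATR (chromosome 9, 36708482 to 36726658, gene ID 12649). It was at 25.2, 94.0 and 209 FPKM in KO and at 29.6, 100.3 and 128 FPKM in WT, the second most abundant of the 10 genes in each column. Differences of -0.22, -0.09 and 0.70 as deposited lay close to the medians over all genes, -0.11, -0.09 and 0.72. After rescaling they were -0.05, -0.02 and -0.08.

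Chek2 encodes CHK2, which answers to ATM and acts on p63 in oocytes (chromosome 5, 110839800 to 110874140, gene ID 50883). It was at 2.04, 3.45 and 2.88 FPKM in KO and at 1.48, 2.54 and 0.780 FPKM in WT. KO was higher at every stage, and WT FGO was its lowest value and its sole one below 1 FPKM. The differences were 0.30, 0.33 and 1.12 as deposited and 0.51, 0.37 and 0.51 after rescaling. On both scales the sign was positive at the 3 stages, and at NGO 323 of the genes compared had a larger difference. At FGO the KO to WT ratio of Chek2 was 3.70 as deposited and 2.14 after rescaling. The summed granulosa level as deposited was also higher in KO FGO, as given above, and its part was not tested. As deposited the median gene was higher there too, by 0.72. The Chek1 to Chek2 ratio was 12.3, 27.2 and 72.6 in KO and 20.02, 39.5 and 164 in WT, that is 0.616, 0.689 and 0.442 times as high in KO.

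Of the apical kinases, Atr exceeded between 30.2% and 47.2% of the genes compared, depending on the column, and Atm was lower. Atr (chromosome 9, 95857597 to 95953217, gene ID 245000) was at 3.01, 5.78 and 7.59 FPKM in KO and at 2.62, 5.14 and 4.77 FPKM in WT. Its differences were 0.14, 0.14 and 0.57 as deposited and 0.32, 0.20 and -0.09 after rescaling. Atm (chromosome 9, 53437122 to 53536828, gene ID 11920) was at 0.375, 0.447 and 0.825 FPKM in KO and at 0.211, 0.502 and 0.506 FPKM in WT, and was not compared. The Atr to Atm ratio was 8.02, 12.9 and 9.19 in KO and 12.5, 10.2 and 9.42 in WT. FPKM is per length of transcript, but the annotation behind the lengths is not given. Atm was also below 1 FPKM in every column, so this ratio carries an unknown counting error.

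**Figure D3:**
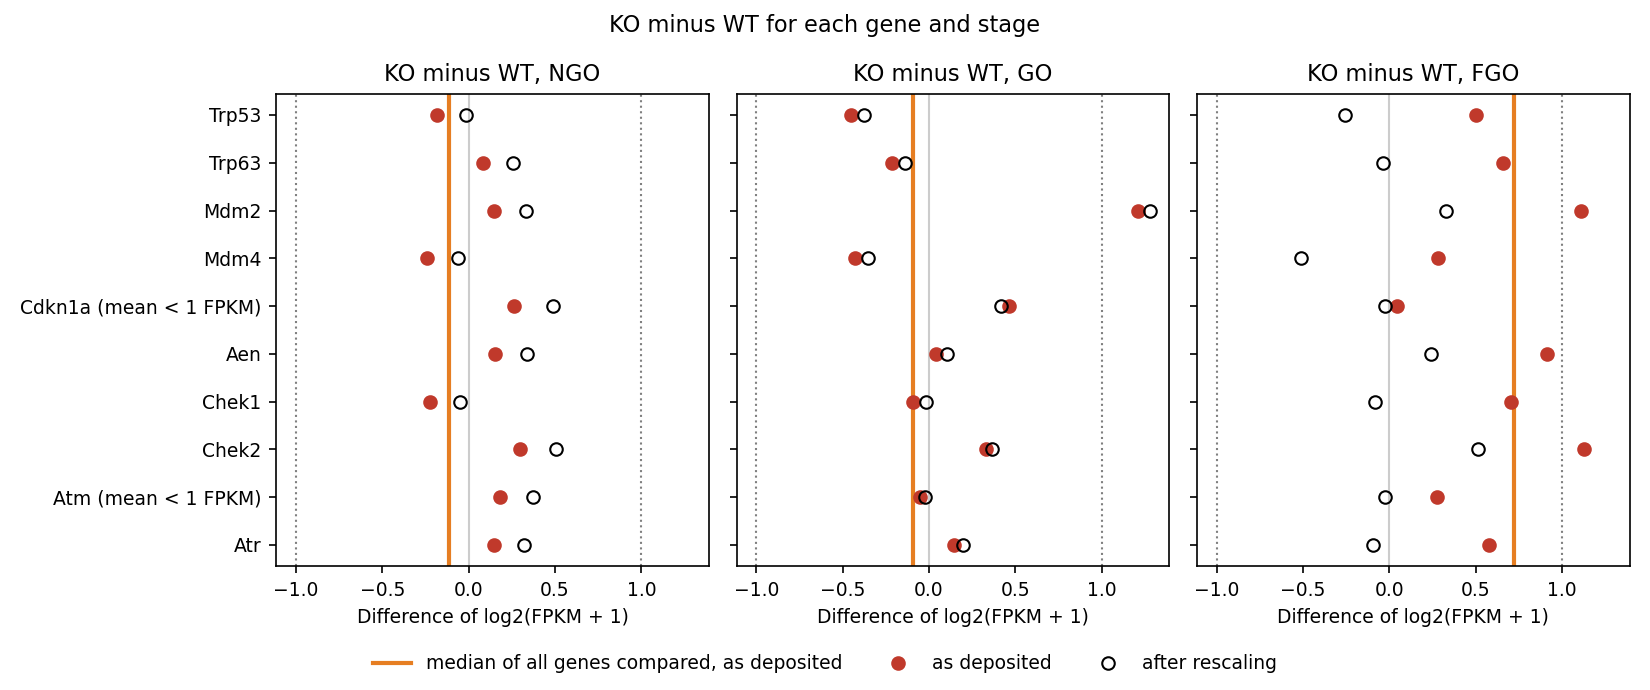
KO minus WT difference of log2(FPKM + 1) (x axis) for each gene at NGO, GO and FGO, as deposited (red, filled) and after rescaling (black, open), 1 value each; dotted lines mark 2-fold and the orange line the median of all 10110 genes as deposited. Mdm2 at GO lies beyond 2-fold on both scales, and at FGO the filled points follow the shift of the median gene to 0.72.

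Set against the background, the calls were few. At NGO 0 of the 8 genes compared were called higher, where 0.0297% of all genes were as deposited and 0.129% after rescaling, and 0 were called lower (0.326% of all genes). At GO 1 of the 8, Mdm2, was called higher, where 0.950% of all genes were as deposited and 1.05% after rescaling, and 0 were called lower (2.03% of all genes). At FGO 2 of the 8, Mdm2 and Chek2, were called higher, where 25.8% of all genes were, and 0 were called lower (0.158%). The FGO count is thus near the background, and after rescaling it was 0, where 1.68% of all genes were called higher. The median difference of the 8 genes was 0.11, -0.03 and 0.68 at NGO, GO and FGO, against -0.11, -0.09 and 0.72 over all genes.

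From NGO to GO the summed FPKM of all genes grew in both genotypes, and the 8 genes were all higher at GO as deposited. In KO 3 of the 8 were at least 2-fold higher at GO (Mdm2, Mdm4 and Chek1) and 0 lower, where 57.6% of all genes were higher and 0.0890% lower. In WT 5 were higher (the same genes with Trp53 and Trp63) and 0 lower, where 54.8% of all genes were higher and 0.129% lower. The share of the 8 genes was below the background in KO and near it in WT. After rescaling, 3 of the 8 were higher at GO in KO and 2 in WT, with median differences of -0.47 and -0.22. Of all 10110 genes, 4885 and 5004 were then higher, with medians of -0.02 and -0.01. Mdm2 at GO was 4.44 times its NGO level in KO and 2.11 times in WT, or 1.64 and 0.839 times after rescaling, so relative to the median gene its GO level lay above its NGO level in KO and below it in WT. Chek1 at GO was 3.73 times its NGO level in KO and 3.39 times in WT.

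From GO to FGO the summed FPKM of all genes was 2.05 times as high in KO and 1.20 times in WT. In KO 3 of the 8 were at least 2-fold higher at FGO (Trp53, Mdm4 and Chek1) and 0 lower, where 39.0% of all genes were higher and 0.514% lower. In WT 0 were higher and 1 lower, Aen, where 6.50% of all genes were higher and 9.22% lower. In WT, FGO values of the 8 genes were below GO values for Trp63 (0.466 times), Chek2 (0.307 times), Aen (0.383 times) and, by little, Atr (0.928 times). In KO the steps of the first 3 were 0.916, 0.834 and 0.815 times as deposited. After rescaling they were 0.496, 0.452 and 0.441 times in KO and 0.460, 0.303 and 0.378 times in WT, so relative to the median gene these 3 genes were lower at FGO than at GO in both genotypes. Atr was 1.31 times its GO level in KO FGO as deposited, and after rescaling it was lower at FGO in both genotypes, at 0.711 times in KO and 0.916 times in WT. Mdm4 and Chek1 were higher at FGO on that scale, at 1.50 and 1.205 times in KO and 1.67 and 1.26 times in WT after rescaling.

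The order of the levels changed little. Mdm4, Chek1, Mdm2, Trp53 and Trp63 followed each other in this order in all 6 columns. Aen exceeded Atr at NGO and GO and was below it at FGO in both genotypes, and Cdkn1a was the lowest of the 10 genes at FGO in both. The highest level was 221, 514 and 4506 times the lowest in KO and 466, 1069 and 4927 times in WT. Neighbours in this order cannot be tested, as there is no spread over samples.

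Lists of other genes of the pathway were described in the same way, by counts and medians. At FGO their counts stand beside 25.8% of all genes called higher and beside the higher granulosa sum in KO, whose part was not tested. The first holds sensors and adaptors that work with ATM and ATR. Of its 27 genes found 26 were compared, and 0, 0 and 6 were at least 2-fold higher in KO at NGO, GO and FGO, with 0 lower. After rescaling the counts were 0, 0 and 1 higher and 0 lower. Their medians were -0.11, -0.13 and 0.82 as deposited, against -0.11, -0.09 and 0.72 over all genes. Rad9a, a subunit of the clamp that loads at damaged DNA, was at 6.05 FPKM in KO FGO and 0.919 in WT FGO, and was also called after rescaling (1.11). Atrip, the partner protein of ATR, was at 4.12 FPKM in KO GO and 2.03 in WT GO. Rad50, of the complex that senses double-strand breaks, was at 33.5 and 22.6 FPKM at GO, and Rbbp8, which works in trimming broken ends, at 21.6 and 15.3 FPKM. At NGO Rhno1, which binds the clamp, was the lower in KO, at 9.22 FPKM against 15.1 in WT, with differences of -0.65 as deposited and -0.51 after rescaling. Rad50 and Atrip were at 15.4 and 1.17 FPKM in KO NGO and at 12.5 and 0.880 FPKM in WT NGO. These NGO differences were all short of 2-fold. At FGO Wrap53 was at 2.31 FPKM in KO and 0.397 in WT, with differences of 1.25 as deposited and 0.64 after rescaling. Claspin (Clspn), which CHK1 activation needs, was at 19.3 FPKM in KO FGO and 16.9 in WT FGO, a difference of 0.18 as deposited and -0.55 after rescaling.

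The next list holds cell-cycle targets of CHK1 and CHK2 and brakes on the checkpoint, of which 19 of 20 were compared. At least 2-fold higher in KO were 0, 0 and 4 at NGO, GO and FGO, and lower 0, 1 and 0. After rescaling the counts were 0, 1 and 1 higher and 0 lower, so that the GO call changed from a lower gene to a higher one. Medians as deposited were -0.15, -0.11 and 0.53. Cdc25a, the phosphatase that CHK1 marks for destruction, was the 1 called lower, at 17.4 FPKM in KO GO and 37.2 in WT GO, with differences of -1.05 as deposited and -0.97 after rescaling, short of 2-fold. At FGO it was at 41.4 FPKM in KO and 43.1 in WT, with differences of -0.06 as deposited and -0.82 after rescaling. Wee1, the kinase that opposes it, was at 22.3 FPKM in KO FGO and 4.59 in WT FGO, and was called on both scales (2.06 and 1.27). Plk1, a mitotic kinase that ends checkpoint arrest, was at 83.7 FPKM in KO GO and 41.5 in WT GO, and at 176 and 59.7 FPKM at FGO. Its GO difference was just under 1 as deposited and 1.07 after rescaling, and its FGO difference 1.55 as deposited and 0.76 after rescaling. Wee2, the oocyte relative of Wee1, was at 138 FPKM in KO GO and 86.8 in WT GO, a difference of 0.67. Cdc25b, a relative of Cdc25a needed for oocytes to resume meiosis, was at 4.76 FPKM in KO NGO and 2.73 in WT NGO. Wee1 and Pkmyt1, a kinase of the same kind, were at 7.40 and 16.9 FPKM in KO NGO and at 5.74 and 14.2 FPKM in WT NGO.

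Of the regulators and cofactors of p53 and p63, 32 of 37 were compared. At least 2-fold higher were 0, 0 and 4 at NGO, GO and FGO, and lower 0, 1 and 0, with medians of -0.11, -0.11 and 0.54. After rescaling 0 were called in either direction at each stage. Sirt1, a deacetylase that acts on p53, was the 1 called lower, at 10.6 FPKM in KO GO and 22.4 in WT GO, with differences of -1.01 as deposited and -0.92 after rescaling, short of 2-fold. Trim24, a ubiquitin ligase of p53, was at 8.61 FPKM in KO GO and 15.1 in WT GO, and Rpl11, a ribosomal protein that can bind MDM2, at 51.6 and 79.7 FPKM. These 3 genes were all the lower in KO GO. Cop1, another such ligase, was at 9.20 FPKM in KO FGO and 11.1 in WT FGO, a difference of -0.25 as deposited and -0.91 after rescaling. Trim24 and Otud5, a deubiquitinase, were at 20.5 and 43.4 FPKM in KO FGO and at 19.2 and 39.0 FPKM in WT FGO, with differences of -0.64 and -0.61 after rescaling. At NGO Sirt1 was at 3.12 FPKM in KO and 4.81 in WT, and Trp53rkb, a kinase gene, at 0.747 and 1.31 FPKM, both lower in KO. Ep300, an acetyltransferase that works with p53, was at 3.93 FPKM in KO NGO and 3.29 in WT NGO.

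Of 45 other p53 targets known from other cells, 25 were compared and the other 20 had means below 1 FPKM. At least 2-fold higher in KO were 0, 1 and 4 at NGO, GO and FGO, with 0 lower. After rescaling the counts were 0, 1 and 0 higher and 0 lower. Their medians were -0.06, 0.01 and 0.71, beside -0.11, -0.09 and 0.72 over all genes. Ddit4, an inhibitor of mTOR signalling, was the 1 called at GO, at 4.98 FPKM in KO and 1.74 in WT, with differences of 1.13 as deposited and 1.11 after rescaling. Perp, a membrane protein gene induced by p53 and p63, was at 5.75 FPKM in KO GO and 2.82 in WT GO, a difference of 0.82. Rrm2b, the p53-induced subunit of ribonucleotide reductase, was at 29.2 FPKM in KO GO and 50.9 in WT GO, the lower value in KO, and at 65.7 and 57.6 FPKM at FGO. Its FGO differences were 0.19 as deposited and -0.58 after rescaling. At FGO Sesn1 was at 3.81 FPKM in KO and 1.05 in WT and Trim35 at 11.3 and 3.85 FPKM, both called as deposited and not after rescaling. Gdf15 was listed at 0 in KO NGO and at 0.441 FPKM in WT NGO. Btg2 and Xpc, which act in growth arrest and in DNA repair, were at 5.70 and 2.36 FPKM in KO NGO and at 4.24 and 1.71 FPKM in WT NGO.

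**Figure D4:**
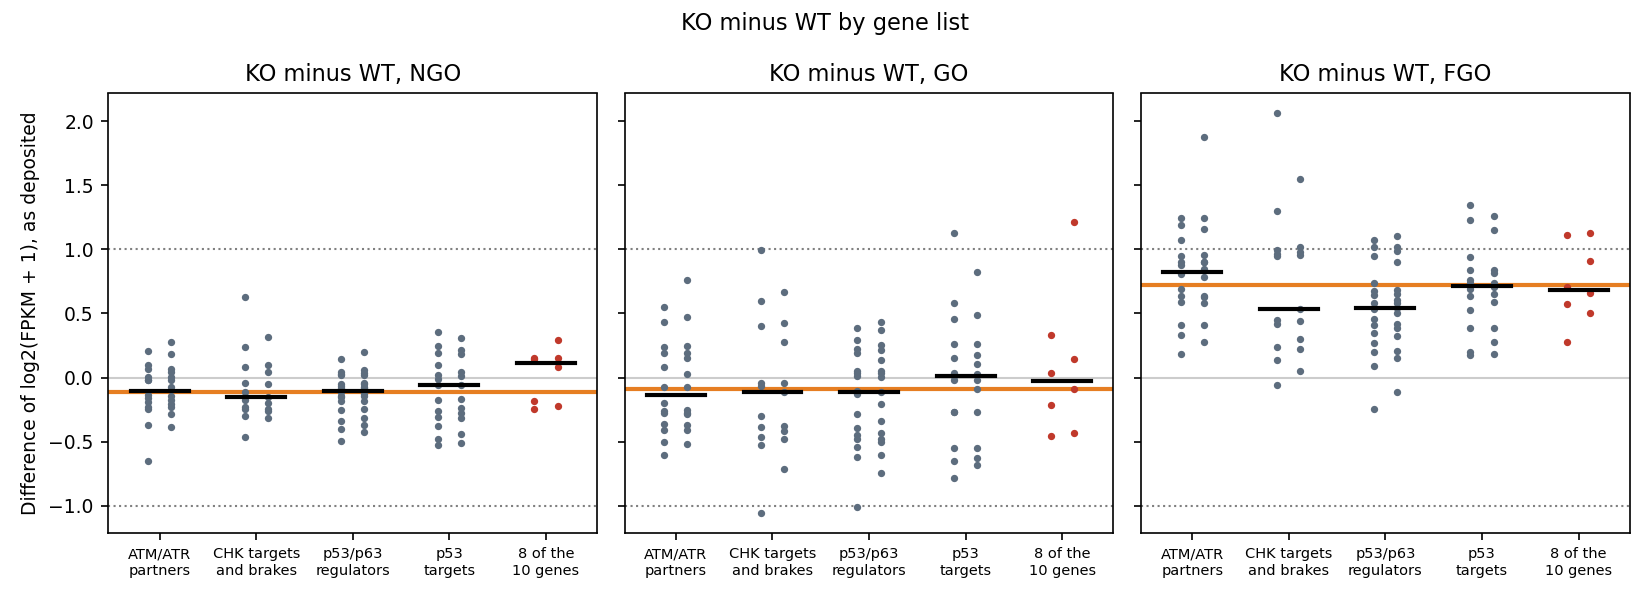
KO minus WT difference of log2(FPKM + 1) as deposited (y axis) for the compared genes of each list at NGO, GO and FGO; each point is a gene, black bars are list medians, the orange line is the median of all 10110 genes, and dotted lines mark 2-fold. Medians of the lists of other pathway genes lie near the orange line at NGO and GO. The median of the 8 compared genes (red points) lies at 0.11 at NGO, where the orange line is at -0.11. Mdm2 is the red point at 1.21 in the GO panel.

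The genes most like each member in pattern were found by the root mean square difference between profiles of log2(FPKM + 1), each centred on its own mean over the 6 columns, among genes averaging 5 FPKM or more. Mdm2 was nearest to Rab3gap2 (0.12) and Carmil1 (0.12), and 26 genes lay within 0.2 of it. Rab3gap2 was at 2.84, 13.2 and 21.2 FPKM in KO and 2.85, 6.40 and 8.10 in WT. Trp63 was nearest to Tgoln1 (0.07), with 83 genes within 0.2, and Trp53 to Eif3h (0.04) and Gpank1 (0.06), with 817. Chek1 was nearest to Mat2b (0.04) and Zfp955a (0.05), and Mdm4 to Gemin6 (0.06) and Slc25a32 (0.06). Chek2 was nearest to Zmiz2 (0.10) and Aldh2 (0.11), Aen to Prkacb (0.08) and Tsen34 (0.11), and Atr to Zcwpw1 (0.05) and Ube2d1 (0.06). Among the members themselves Aen and Chek2 (0.15) and Mdm4 and Chek1 (0.22) were the most alike pairs. With 6 columns that share their scale, likeness of this kind is a description of the columns and says nothing of shared control.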

How the data were processed

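The submitters' processing notes name Trim Galore (version 0.6.7), HISAT2 (version 2.2.1), Cufflinks (version 2.2.1) and the build mm10. The deposited unit is FPKM after an adjustment by the authors to the ERCC spike-in, as the table's name says. Neither the formula nor the annotation is given in the sources used here. Per the labels' protocols, libraries came from 500 pg of cDNA and were read as 150 bp pairs. The table held 25912 lines for 25164 symbols. The 2 lines with spreadsheet error marks were left out, and of 333 symbols on more than 1 line the line of largest mean was kept, which left 25162 genes. Each of the 10 genes stood on 1 line.

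Computed here were differences of log2(FPKM + 1), the count of 2-fold differences over the 10110 genes averaging 1 FPKM or more, and the same after dividing each column by a median-ratio factor taken over those of these genes that were above 0 in every column. FPKM keeps neither counts nor depth, so no count test was run, and 1 column per group left no test over samples. The steps were tested on simulated columns with planted changes well beyond 2-fold, whose recovery was scored in genes at 5 FPKM or more. Recovery of 2-fold differences or of lower genes was not scored, and the real spread between samples is unknown. The 10 genes and the lists were chosen with earlier results of these data known. Named from each list were up to 3 genes per stage with the largest rescaled difference in either direction. For each gene the most alike genes are named, except 1 that is not reported here. Transcripts were searched with blastn 2.17.0 against GENCODE M21, and 0 other genes matched at 95% identity over 50% of the longest transcript. Libraries were not stated to keep strand, so antisense reads cannot be told apart. Lengths were found for 98.3% of genes compared. Promoters are from RefSeq on GRCm38.p6, the assembly that mm10 names. Software was Python 3.11.15, numpy 2.4.6, pandas 2.3.3 and matplotlib 3.10.9.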

Additional observations from a re-analysis of the deposited data

Results flagged for a closer look

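The KO minus WT difference of Trp63 had opposite signs at NGO and GO on both scales. The change from NGO to GO was -0.30 on the log2(FPKM + 1) scale as deposited and -0.40 after rescaling, with KO above WT at NGO (5.92 and 5.52 FPKM) and below it at GO (10.8 and 12.7 FPKM). The difference between the stages was not tested, since each group has 1 column, and both differences were well under 2-fold.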

How the results depend on the processing

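No paired analysis was possible because each genotype and stage has 1 column without a replicate number; leaving out a replicate could not be run either. At GO the count of 1 gene called between KO and WT was found under every alternative run, as was the count of 0 at NGO. Over all 10110 genes, 301 were called at GO in either direction as deposited, 235 after rescaling and 670 with a pseudocount of 0.1. At NGO they were 36, 49 and 272. The GO column factors were close, at 1.22 in KO and 1.29 in WT. All runs reuse the same columns, so spread between samples was not measured. At FGO the count of 2 was 0 after median-ratio rescaling, 0 with all columns at the same total, and 1 with a mean of at least 5 FPKM, where Chek2 was no longer compared, while a pseudocount of 0.1 gave 3, with Aen at 1.10. Over all genes 2628 were called there as deposited, 265 after rescaling, 321 with equal totals and 3589 with a pseudocount of 0.1. With a mean of at least 5 FPKM 1797 of a smaller set were called. From NGO to GO the counts of 3 in KO and 5 in WT were 0 after rescaling and with equal totals. Counts over all genes fell from 5831 to 805 and 906 in KO, and from 5553 to 944 and 1033 in WT. From GO to FGO the count of 3 in KO was 0 after rescaling and 2, both lower, with equal totals, and the count of 1 in WT was 3 with equal totals and with a pseudocount of 0.1. Over all genes the KO counts were 3998 as deposited, 1019 after rescaling and 1195 with equal totals. In WT they were 1589 as deposited, 1677 with equal totals and 2202 with a pseudocount of 0.1. Rescaling over every gene above 0, chosen after seeing the data, gave 0 at FGO, 0 for GO over NGO in both genotypes and 0 for FGO over GO in KO. Over all genes it gave 264 at FGO, 822 (KO) and 933 (WT) for GO over NGO, and 1015 for FGO over GO in KO. Of the GO over NGO differences called in WT, those of 3 genes turned negative. They were Trp53 (-0.19 after rescaling, -0.16 with equal totals, -0.17 over every gene above 0), Trp63 (-0.11, -0.084 and -0.095) and Mdm2 (-0.24, -0.21 and -0.22). Aen, Chek2 and Atr, not called there, also turned negative in WT, at -0.72, -0.39 and -0.29 after rescaling. In KO Trp53, Trp63, Aen, Chek2 and Atr did so, at -0.55, -0.51, -0.96, -0.53 and -0.42. Mdm4 and Chek1 stayed positive in both genotypes, and Mdm2 in KO. Of the 56 single differences, 10 called as deposited fell below 2-fold in the same direction under each scaling. A further 15 that were not called changed sign after rescaling, and 17 with equal totals. A change of column scale moves every gene by about the same amount, and which scale stands for RNA per oocyte was not tested. Read depth is unknown, so values below 1 FPKM carry an unknown counting error.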

Other observations

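The nearest protein-coding genes on either side of Mdm2 that passed the minimum level for comparison were looked up after its values were seen. Genes below that minimum and non-coding genes were left out, so closer genes may exist that were not examined. Cpm, 2 kb away, was at 2.06 FPKM in KO GO and 2.51 in WT GO, and Nup107, 40 kb to the other side, was at 47.4 and 38.4 FPKM. Neither shared the GO difference of Mdm2, at -0.20 and 0.30 on the log2(FPKM + 1) scale. Mdm1, 431 kb away, was also higher in KO GO, at 23.4 FPKM against 15.5 in WT GO, a difference of 0.57. At FGO it was at 22.0 FPKM in KO and 5.28 in WT, a difference of 1.87. Over the 6 neighbours looked up, GO differences lay between -0.37 and 0.57.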
